A study of Homo sapiens with 12 samples.

Results

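Of the 12 libraries of a study of the kinase gene DYRK1B, 6 are described here, as 2 sets of 3. Libraries 4, 8 and 12 had the highest DYRK1B counts, and they are set against libraries 3, 7 and 11. The sets were chosen from the measured values: libraries whose numbers leave the same remainder on division by 4 were in most cases the most alike, and both sets read the gene CSAG1 and had almost no reads of CDH10. The sets cross the groups of the titles, so the titles do not give a line or a treatment for either set. Library 4 is titled WT doxycycline replicate 1, library 8 Y273F control replicate 2 and library 12 Y273F doxycycline replicate 3. Library 3 is titled WT control replicate 3, library 7 Y273F control replicate 1 and library 11 Y273F doxycycline replicate 2. All libraries are A549 cells, a human lung adenocarcinoma line, with a tetracycline-inducible DYRK1B gene, either wild-type (WT) or Y273F, a change from tyrosine to phenylalanine. Per the labels, cells were cultured for 7 days, and the doxycycline groups received 2 µg/ml of doxycycline while the control groups did not. Each of the 4 labelled groups (WT control, WT doxycycline, Y273F control, Y273F doxycycline) holds 3 libraries, described as independent populations grown in parallel, and all share a batch label. No line without the transgene is among the samples, and the sources used here do not say whether a line is a single clone.

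The DYRK1B kinase acts on a tyrosine of its own activation loop during its translation, and afterwards on serine and threonine of other proteins. It is known for holding cells in a quiescent state, through cyclin D1 turnover, the CDK inhibitor p27 and the DREAM repressor complex. The series title asks about a senescence-like program, which in other systems joins a stop of the cell cycle to secretion of cytokines, proteases and matrix proteins.

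Library totals were 7219722, 2996905 and 9165769 counts in libraries 4, 8 and 12, and 9094386, 7884575 and 5081182 in libraries 3, 7 and 11. CPM are counts scaled to library totals with TMM factors. Over all 12 libraries, 3 counts were worth 0.136 to 1.08 CPM by library totals alone, without TMM factors. All values below are CPM in the order 4, 8, 12 against 3, 7, 11 unless stated otherwise. A difference is that of the median log2 CPM of the sets, 4, 8, 12 minus 3, 7, 11. The pairwise correlation of log2 CPM was 0.970 to 0.984 within the sets (6 pairs) and 0.965 to 0.982 between them (9 pairs), as a description across genes. The 6 libraries therefore lie close together, and no pair agreed within sampling noise. Library 12 correlated best with library 7 of the other set (0.9818), beside 0.9806 with library 4 and 0.9772 with library 8. Mitochondrially encoded genes took 6.43%, 4.48% and 4.21% of counts against 5.87%, 3.87% and 3.91%. The 12 fixed A549 marker genes summed to 26099 to 27333 CPM in libraries 4, 8 and 12 and to 23010 to 25466 CPM in libraries 3, 7 and 11. Singly they were split, with 2 higher without overlap (KRT18 and AKR1B10) and 2 lower (EPCAM and AKR1C1). The 12 immune markers summed to 7.96 to 10.9 CPM against 9.81 to 13.7 CPM. Of these, CD14 was read at 4.98 to 7.81 CPM over the 6 libraries. LYZ was lower without overlap, at 0.14, 0 and 0.43 CPM against 1.24, 3.26 and 2.93 CPM. ITGAM was higher without overlap, at 1.16, 0.995 and 1.30 CPM against 0.23, 0.75 and 0.39 CPM, on at most 12 counts in a library. CD68 (0 to 1.33 CPM) and the globin gene HBB (0.66 to 3.26 CPM), also in that list, overlapped. PTPRC, CD3D, CD3E, MS4A1 and NKG7 were at 0. The 14 genes of alveolar and airway epithelium summed to 21.9 to 26.2 CPM against 19.6 to 26.2 CPM. Most of that came from ABCA3, at 14.99 to 21.5 CPM, with FOXJ1 at 1.95 to 3.98 CPM, and SFTPA1, SFTPA2, SFTPB, NKX2-1, SCGB1A1 and KRT5 were at 0. These are bulk cultures, in which fewer cells of a kind and less RNA per cell cannot be told apart.

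DYRK1B (ENSG00000105204, chromosome 19, 39825350 to 39834162, GRCh38.p14) was read at 28.6, 12.6 and 19.97 CPM in libraries 4, 8 and 12. It was read at 5.64, 2.63 and 4.88 CPM in libraries 3, 7 and 11. The first 3 values lie above all others, a median difference of 1.98 on the log2 scale or 3.94-fold, and this is what chose the libraries. The lowest value inside the set was 12.6 CPM in library 8, which rests on 38 counts, and the highest outside it was 7.79 CPM in library 6, titled WT doxycycline replicate 3. The library labelled Y273F control replicate 2 thus held more DYRK1B than 4 of the 6 libraries labelled doxycycline. Reads of this assay start near the 3' end of a transcript, and the sources used here do not describe that end of the inserted gene, so reads from the inserted and the resident gene cannot be told apart.

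**Figure D1:**
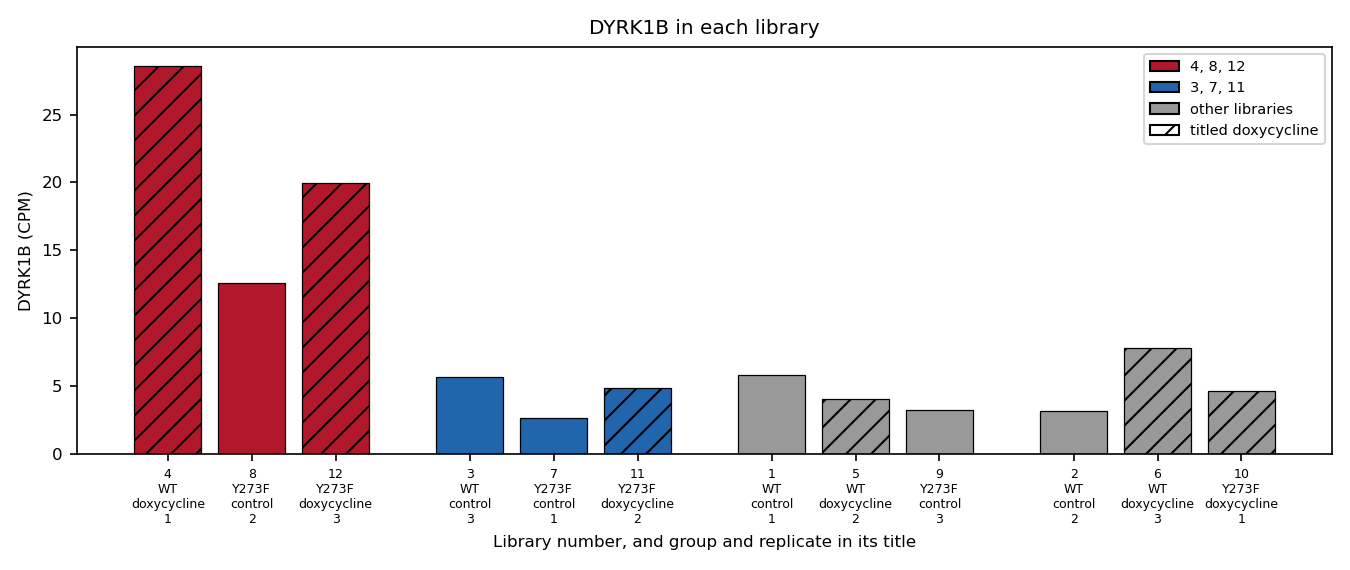
Bars give DYRK1B in CPM (vertical axis, from 0) in each of the 12 libraries, with the library number and the title's group and replicate below, and hatching marks a doxycycline title. Libraries 4, 8 and 12 stand at 28.6, 12.6 and 19.97 CPM and no other library passes 7.79 CPM, although library 8 carries a control title.

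CSAG1, a cancer-testis antigen gene, was read at 13.3, 14.3 and 13.6 CPM against 9.13, 11.4 and 9.57 CPM, while the other 6 libraries had at most 0.83 CPM. CDH10, a cadherin gene, was read at 0, 0 and 0.11 CPM against 0.23, 0.25 and 0.20 CPM, at or under the level of 3 counts in each of these libraries, and at 2.86 to 5.99 CPM in the other 6. These genes were part of the choice as well.

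Of 13045 genes tested in the labelled fit, 1172 (8.98%) had all 3 values of libraries 4, 8 and 12 above those of 3, 7 and 11, and 1109 (8.5%) had all 3 below. In 302 genes (2.32%) the medians were also at least 1.5-fold higher, and in 238 (1.82%) at least 1.5-fold lower, together 540 (4.14%). These shares are the background for each gene list below, and nothing is read from them, since the libraries were chosen from the same values. For the same reason no test is given between the sets. With 1 of the 6 libraries left out the counts were 433 to 481 higher and 340 to 504 lower, because fewer values overlap less easily.

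The metabolic and secreted-protein genes GALNT16, PHGDH and STC2, the TRIM-family gene TRIML2 and the matrix and cytoskeletal response genes ANKRD1 and EFEMP1 were among the named genes with the largest positive differences. GALNT16, which encodes an enzyme that starts O-linked glycans on secreted proteins, was read at 21.9, 14.9 and 20.8 CPM against 2.48, 1.503 and 2.73 CPM (difference 2.95, 7.73-fold). TRIML2 was read at 49.7, 47.4 and 45.9 CPM against 11.6, 13.2 and 10.2 CPM (difference 2.01). Neither gene's sets came near each other. MB21D2 was read at 8.70, 20.9 and 19.8 CPM against 5.86, 8.52 and 6.05 CPM, so that library 4 lay just above library 7. Its difference of 1.67 was 1.09 without library 8 and 1.13 without library 12. TNFRSF12A, the receptor for the cytokine TWEAK, was read at 77.8, 71.3 and 77.6 CPM against 31.7, 30.6 and 32.2 CPM (difference 1.29). The long noncoding RNA LINC00707 was read at 22.8, 13.3 and 16.6 CPM against 9.13, 6.89 and 6.44 CPM (difference 1.24). The range within each set was small beside the gap between them for TNFRSF12A and wide for LINC00707.

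FGFR3, a receptor tyrosine kinase for fibroblast growth factors, had the largest negative difference among the named genes. It was read at 6.96, 13.6 and 10.1 CPM against 353, 453 and 528 CPM (difference -5.45, 43.8-fold lower). It did not keep to one level elsewhere: libraries 1, 5 and 9 read 388, 10.0 and 59.0 CPM and libraries 2, 6 and 10 read 6.74, 157 and 6.43 CPM. FGFR3 thus differed among libraries that were alike in other genes. NTS, the precursor of the peptide neurotensin, was read at 5.94, 5.64 and 5.75 CPM against 24.1, 24.1 and 22.1 CPM (difference -2.02). DIRAS3, an imprinted gene for a small GTPase, was read at 18.3, 13.6 and 17.3 CPM against 54.4, 51.2 and 48.4 CPM (difference -1.56). Both had closely spaced values within each set. PADI2, which converts arginine of proteins to citrulline, was read at 16.2, 14.6 and 16.3 CPM against 41.9, 43.2 and 37.7 CPM (difference -1.36). LXN, a carboxypeptidase inhibitor, was read at 42.9, 45.4 and 53.7 CPM against 105, 112 and 135 CPM (difference -1.30). HLA-DMB, which helps load peptides on MHC class II, was read at 18.8, 31.8 and 35.0 CPM against 45.3, 70.2 and 76.1 CPM (difference -1.13), with library 4 lowest in its set and library 3 lowest in the other.

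**Figure D2:**
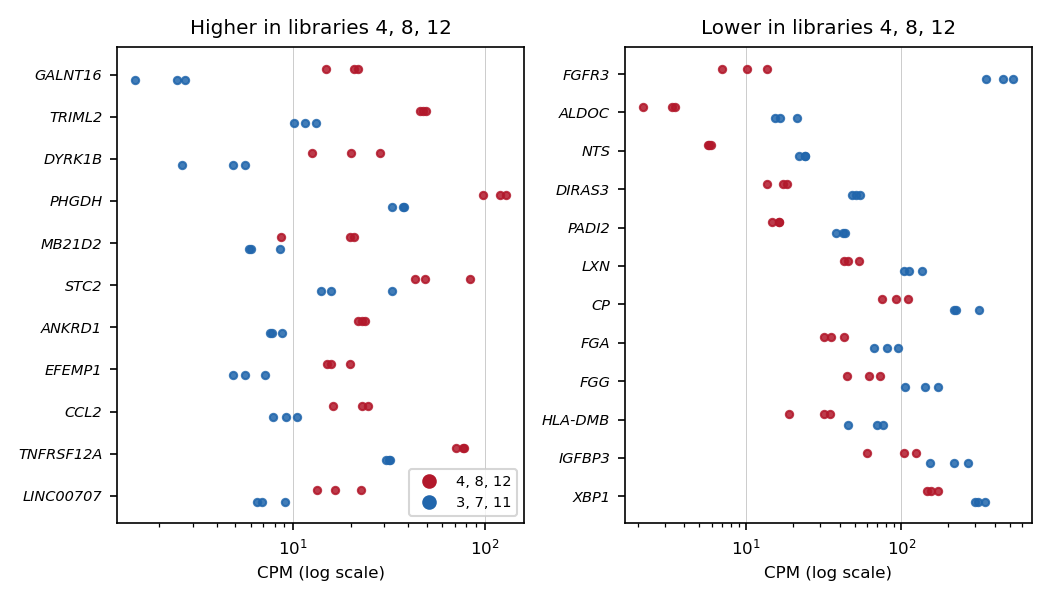
Each point is 1 library, with CPM on a log axis, for the named genes with the largest positive (left, 11 shown) and negative (right, 12 shown) differences of the medians, libraries 4, 8, 12 in red and 3, 7, 11 in blue. The sets do not overlap in any of these genes by the rule that chose them. FGFR3 has the widest gap, 6.96 to 13.6 CPM against 353 to 528 CPM.

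The integrated stress response restores amino acid supply when the translation factor eIF2 is phosphorylated and the transcription factor ATF4 is made. Its list was one-sided: of 34 tested members, 19 were higher without overlap and 0 lower, 11 of them by at least 1.5-fold. The median difference of the members was 0.42, beside 0.00093 over all genes. PHGDH, the first enzyme of serine synthesis, was read at 129, 98.5 and 120 CPM against 37.3, 32.7 and 37.9 CPM (difference 1.68). STC2, a secreted stress-induced glycoprotein, was read at 83.5, 49.1 and 43.3 CPM against 32.7, 14.03 and 15.8 CPM (difference 1.62). In STC2 library 4 was highest in its set and library 3 in the other. JDP2, a transcription factor of the AP-1 family, was read at 26.1, 15.3 and 17.5 CPM against 12.8, 8.02 and 8.00 CPM (difference 1.10). PCK2, the mitochondrial enzyme that makes phosphoenolpyruvate, was read at 58.0, 43.5 and 49.2 CPM against 21.1, 23.4 and 24.0 CPM (difference 1.06).

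Some further members were chosen after their values were seen. TRIB3, a pseudokinase induced by ATF4, was read at 65.4, 62.7 and 65.6 CPM against 28.7, 33.3 and 33.8 CPM. PSAT1, the next enzyme of serine synthesis after PHGDH, was read at 220, 196 and 182 CPM against 105, 100.2 and 98.8 CPM. Both were well apart. ATF4 itself overlapped, at 440, 328 and 408 CPM against 322, 326 and 345 CPM, and so did the transcription factor gene DDIT3, at 20.9, 12.3 and 13.7 CPM against 9.35, 12.4 and 10.9 CPM. The level of the list in a library, which is the log2 CPM of each member relative to its own mean in all 12 libraries, averaged over members, was 0.40, 0.19 and 0.24 against -0.22, -0.35 and -0.25.

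**Figure D3:**
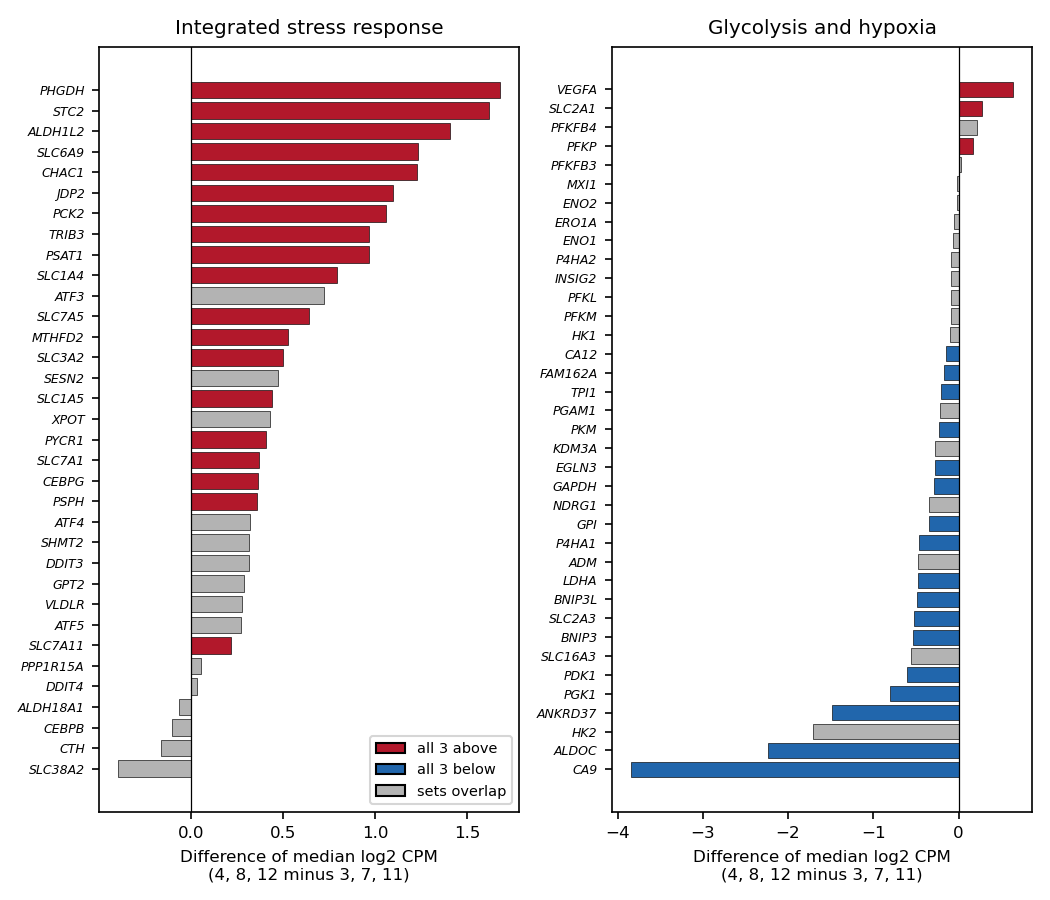
Each bar is the difference of the median log2 CPM of libraries 4, 8, 12 minus 3, 7, 11 (horizontal axis) for every tested member of the stress response list (left, 34 genes) and the glycolysis and hypoxia list (right, 37 genes), coloured where the sets do not overlap. In the first list 19 bars are red and 0 blue, and in the second 3 are red and 17 blue. The length of the CA9 bar depends on the prior count, since that gene was read at 0.29, 0 and 0 CPM in libraries 4, 8 and 12.

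Aminoacyl-tRNA synthetases, which charge tRNAs with amino acids, had 11 of 20 members higher without overlap and 1 lower, with 1 past 1.5-fold and a median difference of 0.23. CARS1, for cysteine, was read at 126, 110 and 104 CPM against 71.8, 64.3 and 75.7 CPM (difference 0.62). GARS1, for glycine, was read at 212, 197 and 191 CPM against 136, 133 and 130 CPM (difference 0.57). Differences here were small, and the values within a set lay close to each other. YARS1, for tyrosine, had a difference of 0.55, and MARS1, for methionine, was read at 342, 280 and 282 CPM against 204, 194 and 195 CPM (difference 0.53).

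The unfolded protein response of the endoplasmic reticulum (ER) is the neighbouring pathway, in which the transcription factors XBP1 and ATF6 induce chaperones and the degradation machinery (ERAD). Of 31 tested members of that list, 11 were lower without overlap and 0 higher, 1 of them by at least 1.5-fold, and the median difference was -0.17. XBP1 was read at 156, 147 and 173 CPM against 310, 297 and 344 CPM (difference -0.99). SYVN1, the ubiquitin ligase of ERAD also called HRD1, was read at 30.1, 31.2 and 32.8 CPM against 45.9, 41.6 and 49.98 CPM (difference -0.55). XBP1 and SYVN1 were both lower where the stress response members above were higher. SSR1, a subunit of the translocon-associated complex, had a difference of -0.25. PDIA6, a protein disulfide isomerase, was read at 568, 507 and 480 CPM against 700.3, 599 and 595 CPM (difference -0.24), its sets just apart.

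Promoter sequence is shown for 1 stress response gene and 2 ER genes that were set apart above, because these pathways are known to act through short motifs. The sequences are RefSeq windows before a transcription start (GRCh38.p14), of which the longest stretch outside annotated untranslated regions is printed, 5' to 3' on the gene's strand. Capitals mark the C/EBP-ATF element TGATGNAA in JDP2 (chr14:75427850-75428021, plus strand, 1 of 3 windows of the gene). In XBP1 (chr22:28800598-28800819, minus strand) and PDIA6 (chr2:10812845-10813035, minus strand) they mark the ER stress element, CCAAT followed after 9 bases by CCACG.
JDP2: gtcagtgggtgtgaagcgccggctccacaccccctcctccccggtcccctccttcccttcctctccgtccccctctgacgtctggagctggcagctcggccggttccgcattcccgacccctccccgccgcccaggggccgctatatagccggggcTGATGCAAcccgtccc
XBP1: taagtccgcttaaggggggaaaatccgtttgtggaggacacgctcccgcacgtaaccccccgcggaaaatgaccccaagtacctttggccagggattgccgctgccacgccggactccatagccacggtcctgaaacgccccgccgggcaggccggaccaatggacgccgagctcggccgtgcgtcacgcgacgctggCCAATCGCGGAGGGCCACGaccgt
PDIA6: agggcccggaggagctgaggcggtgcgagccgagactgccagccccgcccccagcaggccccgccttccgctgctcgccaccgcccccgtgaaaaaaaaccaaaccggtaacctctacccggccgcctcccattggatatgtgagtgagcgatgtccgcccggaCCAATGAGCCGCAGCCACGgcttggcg
In the 250 bases before a start, on either strand, TGATGNAA was in a window of 5 of the 28 stress response members with a window, 4 of them among the 15 that did not overlap, and in a window of 3.89% of all 27305 genes that have one. The ER stress element was in a window of 7 of 29 ER members, 3 of them among the 10 that did not overlap, and in a window of 0.0916% of all genes. A match is a description of these letters, not evidence of a bound factor.

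Glycolysis and hypoxia genes, many of them targets of the HIF transcription factors, were mostly lower in libraries 4, 8 and 12: of 37 tested members 17 were lower without overlap and 3 higher, 5 and 1 of them by at least 1.5-fold, with a median difference of -0.23. ALDOC, a fructose-bisphosphate aldolase, was read at 3.48, 3.32 and 2.17 CPM against 21.3, 15.4 and 16.6 CPM (difference -2.24). PGK1, the first ATP-making enzyme of glycolysis, was read at 461, 509 and 500.2 CPM against 946, 819 and 873 CPM (difference -0.80). BNIP3, a mitophagy receptor, was read at 70.3, 66.0 and 73.1 CPM against 144, 93.6 and 102 CPM (difference -0.53), with library 3 highest. VEGFA, the angiogenic growth factor and also a HIF target, went the other way, at 18.6, 22.9 and 18.3 CPM against 11.8, 14.03 and 10.7 CPM (difference 0.64). The list's level was -0.31, -0.31 and -0.29 against 0.33, 0.04 and 0.11. The core of the hypoxia response element, ACGTG on either strand, was in a window of 21 of the 33 members with one, 13 of them among the 17 that did not overlap, and in a window of 21.7% of all genes. Its letters stand in capitals in the stretch before PGK1 (chrX:78103998-78104173, plus strand), shown because PGK1 is one of the genes named here.
PGK1: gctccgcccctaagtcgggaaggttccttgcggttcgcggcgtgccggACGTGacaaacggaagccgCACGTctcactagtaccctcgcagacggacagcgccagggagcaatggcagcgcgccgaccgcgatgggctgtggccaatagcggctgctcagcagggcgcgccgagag

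Sterol and fatty acid synthesis genes, which the SREBP transcription factors induce when sterols are scarce, had 13 of 34 tested members lower without overlap and 1 higher, 1 of them by at least 1.5-fold (median difference -0.23). FADS2, a fatty acid desaturase, was read at 126, 113 and 122 CPM against 170, 184 and 177 CPM (difference -0.53). SCD, the stearoyl-CoA desaturase, was read at 519, 485 and 498 CPM against 675, 677 and 679.6 CPM (difference -0.44), with nearly equal values in libraries 3, 7 and 11.

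A549 cells secrete some proteins that the liver makes for plasma, and mucins of glandular epithelium. Of 15 tested liver-type and complement genes, 9 were lower without overlap and 0 higher, 6 of them by at least 1.5-fold (median difference -0.58). CP, the copper carrier ceruloplasmin, was read at 75.1, 91.9 and 110.4 CPM against 225, 219 and 317 CPM (difference -1.29). The fibrinogen chain gene FGA was read at 31.9, 35.2 and 42.7 CPM against 66.4, 81.2 and 95.3 CPM (difference -1.20). Its neighbour FGG was read at 44.4, 62.0 and 72.5 CPM against 106, 142 and 172 CPM (difference -1.20). In both fibrinogen genes library 4 was lowest in its set and library 3 in the other, so the sets are apart but not tight. C3, the central complement protein, was read at 19.0, 15.6 and 24.3 CPM against 32.2, 36.7 and 42.4 CPM (difference -0.94).

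Of 14 tested mucin and secretory genes, 8 were lower without overlap and 0 higher, 5 of them by at least 1.5-fold (median difference -0.71). SLPI, a protease inhibitor of airway mucus, was read at 12.3, 9.62 and 12.5 CPM against 20.5, 21.0 and 27.9 CPM (difference -0.76). CREB3L1, a transcription factor of secretory cells, was read at 13.9, 14.9 and 13.7 CPM against 31.0, 21.4 and 22.1 CPM (difference -0.66). SPDEF, which drives goblet cell differentiation, had a difference of -0.49. MUC5AC, a gel-forming mucin, was close to overlap at 26.4, 21.9 and 26.8 CPM against 28.5, 28.4 and 43.7 CPM.

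Extracellular matrix and mesenchymal genes had 17 of 36 tested members higher without overlap and 2 lower, 9 and 0 of them by at least 1.5-fold (median difference 0.29). LAMB3, a laminin chain of basement membranes, was read at 17.8, 14.3 and 15.6 CPM against 8.68, 9.52 and 8.98 CPM (difference 0.78). COL1A1, a chain of type I collagen, was read at 30.7, 29.5 and 29.3 CPM against 13.4, 14.5 and 13.3 CPM (difference 1.12). For COL1A1 the gap was far wider than the range within either set. COL5A1, a chain of type V collagen, was read at 63.1, 40.1 and 47.9 CPM against 29.2, 24.6 and 19.7 CPM (difference 0.96). EFEMP1, the matrix protein fibulin-3, was read at 15.1, 19.9 and 15.8 CPM against 7.10, 5.64 and 4.88 CPM (difference 1.45). The 12 fibroblast and smooth muscle markers, of which 4 were tested and COL1A1 is one, summed to 52.4 to 61.5 CPM against 31.6 to 35.7 CPM. TAGLN, a smooth muscle cytoskeletal gene of that list, was read at 5.51, 10.9 and 4.13 CPM against 2.25, 2.38 and 1.56 CPM, higher without overlap, and ACTA2, smooth muscle actin, overlapped at 23.8, 14.6 and 17.5 CPM against 18.6, 14.3 and 15.6 CPM. LUM, the proteoglycan lumican, went the other way. It was lower without overlap, at 0.14, 0 and 0.22 CPM against 0.56, 1.002 and 0.39 CPM, on at most 8 counts in a library. DCN, DES and FAP were at 0 in all 6 libraries. The part of these markers in the matrix result was not tested.

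Targets of YAP and TAZ, coactivators that respond to cell shape and contact through TEAD factors, had 11 of 26 tested members higher without overlap and 3 lower, 5 and 1 of them by at least 1.5-fold (median difference 0.23). ANKRD1, a common reporter of YAP activity, was read at 23.6, 21.9 and 22.8 CPM against 8.79, 7.77 and 7.61 CPM (difference 1.52). AJUBA, a LIM protein of cell junctions, was read at 56.5, 55.1 and 50.4 CPM against 42.3, 28.2 and 25.0 CPM (difference 0.96). AXL, a receptor tyrosine kinase, was read at 96.8, 89.2 and 79.9 CPM against 46.4, 46.9 and 48.8 CPM (difference 0.93). IGFBP3, which binds insulin-like growth factors and is also in this list, went the other way, at 60.4, 104 and 124 CPM against 153, 218 and 268 CPM (difference -1.06). The TEAD motif GGAATG was in a window of 10 of the 20 members with one, 4 of them among the 10 that did not overlap, and in a window of 14.3% of all genes. ANKRD1 has 2 matches. The one outside annotated untranslated regions (chr10:90921277-90921337, minus strand) is in capitals.
ANKRD1: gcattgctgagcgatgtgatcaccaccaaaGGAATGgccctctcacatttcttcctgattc

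Secreted factors associated with senescence, the subject of the series title, had 14 of 36 tested members higher without overlap and 7 lower, 9 and 2 of them by at least 1.5-fold. The median difference was 0.09 and was -0.030 without library 4, so the sign of the median rested on that library. The list's level, a mean over members, was -0.16, 0.030 and -0.08 against -0.20, -0.32 and -0.26, without overlap. CCL2, a monocyte chemokine, was read at 16.1, 24.5 and 23.0 CPM against 7.89, 10.5 and 9.18 CPM (difference 1.30). STC2 and IGFBP3, given above, are members too and lay on opposite sides. GDF15, a stress-induced cytokine, was lower at 41.5, 33.8 and 40.6 CPM against 63.1, 48.6 and 60.7 CPM (difference -0.58). CXCL8, the neutrophil chemokine, had at most 2.32 CPM in these 6 libraries, and its sets overlapped.

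The arrest genes gave small differences. CDKN1A, the p21 gene of the CDK inhibitor family, was read at 63.2, 48.1 and 63.3 CPM against 53.9, 56.6 and 62.3 CPM, so the sets overlapped. Its median difference of 0.16 was -0.04 without library 4 or library 12. CDKN1B, which encodes p27, was read at 57.5, 55.7 and 53.5 CPM against 73.4, 54.4 and 56.4 CPM and overlapped as well. Of 17 tested genes in the list of CDK inhibitors and D cyclins, which also holds the mitotic cyclin gene CCNB1, 1 was higher without overlap and 0 lower. The higher gene was CCND1, which encodes cyclin D1, at 187, 206 and 211 CPM against 148, 175 and 181 CPM (difference 0.24). On counts without strand its difference was 0.54.

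Cell cycle and p53 lists stayed near the median of all genes, with 0 members past 1.5-fold. Of 46 G1/S and replication genes 3 were higher and 4 lower without overlap (median difference -0.05). POLA2, a subunit of the DNA polymerase alpha-primase complex, had the largest difference among those named (0.32). It was read at 34.9, 37.2 and 36.7 CPM against 28.6, 29.9 and 29.3 CPM. Of 49 G2/M genes 2 were higher and 1 lower (median -0.02), among them CDC25B, a phosphatase that activates CDK1, with a difference of 0.16. Of 33 p53 targets 2 were higher and 4 lower (median 0.0036). GDF15, given above, is in this list too and had the largest difference among those named (-0.58). PMAIP1, the apoptosis gene also called NOXA, had a difference of 0.31 and DDB2, a DNA damage sensor, of -0.27. MKI67, a proliferation marker, was read at 231, 253 and 217 CPM against 209, 222 and 218 CPM, and LMNB1, a nuclear lamina gene that senescent cells lose in other systems, at 117, 118 and 96.6 CPM against 100.4, 105 and 83.4 CPM. Both overlapped between the sets.

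DYRK1B's relatives and partners differed little. Of 18 tested DYRK and HIPK kinases and partners 4 were higher and 1 lower without overlap, and the only one past 1.5-fold was DYRK1B itself (median difference 0.10). DYRK1B, which chose the libraries, is among these 4 by that choice. It also counts in the list's median and level. HIPK1, a related nuclear kinase, was read at 26.4, 30.2 and 28.9 CPM against 21.8, 24.8 and 23.2 CPM (difference 0.31). RBL1, which encodes the DREAM subunit p107, had a difference of 0.33, and LIN54, its DNA-binding partner, of -0.35. DCAF7, a scaffold protein that binds DYRK1B, overlapped at 307, 301 and 247 CPM against 289, 255 and 232 CPM.

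**Figure D4:**
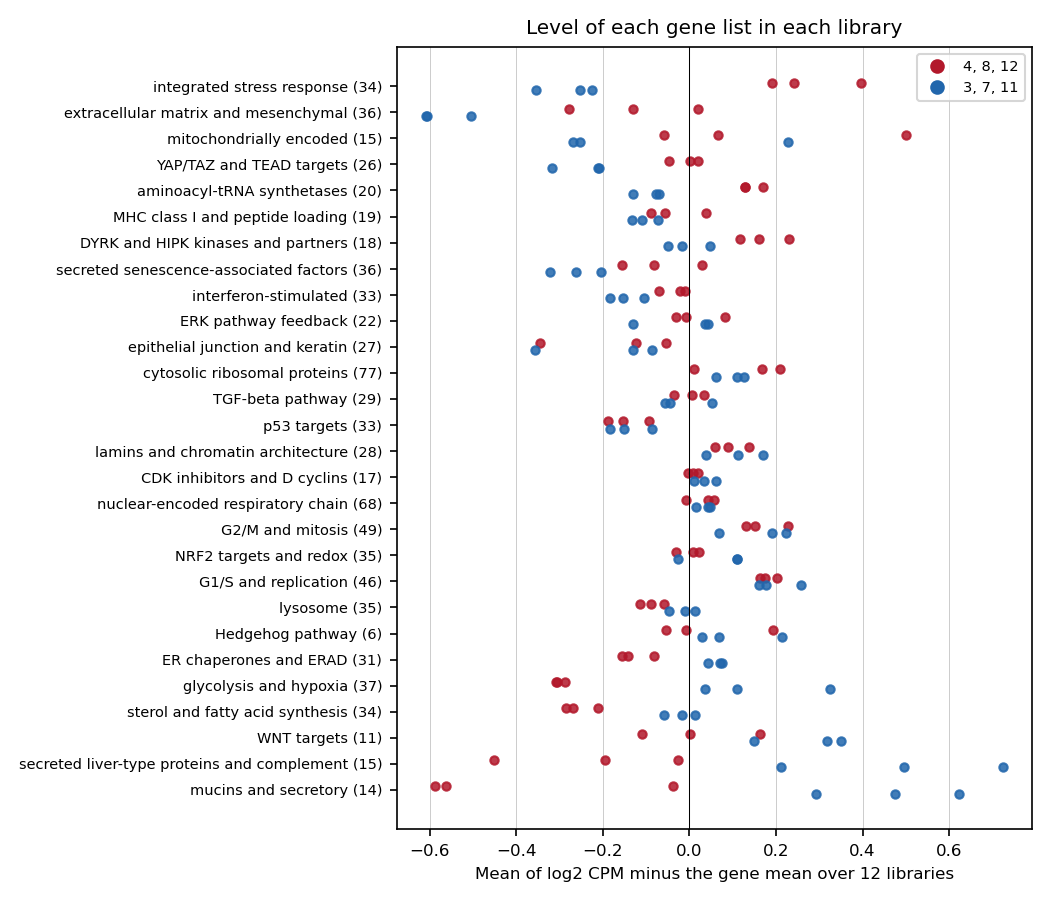
Each point is the level of a gene list in 1 library, averaged over its tested members (number in brackets) as log2 CPM relative to each gene's mean in all 12 libraries (horizontal axis), with libraries 4, 8, 12 in red and 3, 7, 11 in blue, and lists ordered by their median difference. The sets lie apart for the stress response list (0.19 to 0.40 against -0.35 to -0.22) and the glycolysis and hypoxia list (-0.31 to -0.29 against 0.04 to 0.33).

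Epithelial junction and keratin genes were split, with 6 of 27 tested members higher and 3 lower without overlap (3 and 1 past 1.5-fold, median 0.03). KRT80, a type II keratin, was read at 50.4, 60.4 and 61.9 CPM against 23.8, 26.4 and 30.8 CPM (difference 1.18). KRT19 had a difference of 0.71 and KRT7 of 0.60. EPCAM, an epithelial adhesion protein, went the other way at 4.78, 7.30 and 8.36 CPM against 12.3, 13.7 and 17.0 CPM (difference -0.88). Interferon-stimulated genes had 7 of 33 higher and 2 lower (2 and 1 past 1.5-fold, median 0.09), and MHC class I genes 4 of 19 higher and 1 lower (0 past 1.5-fold, median 0.12). Among them SAMD9, an antiviral factor, had a difference of 0.71, ISG20, an exonuclease, of -0.66, and TAP2, a peptide transporter, of 0.28. Lysosome genes had 8 of 35 lower and 0 higher (0 past 1.5-fold, median -0.06), with the protease gene CTSL at 164, 136 and 149 CPM against 196, 189.7 and 187 CPM.

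Signalling lists were mixed. By members without overlap the ERK, TGF-beta, NRF2 and Hedgehog lists were split. WNT targets leaned lower, with a negative difference in 9 of 11 tested members, and 5 of 6 Hedgehog genes were negative as well. Over all 13045 genes 6485 were negative. ERK feedback genes had 5 of 22 higher and 3 lower (median 0.04), TGF-beta pathway genes 5 of 29 and 7 (median 0.02), WNT targets 1 of 11 and 4 (median -0.33), Hedgehog genes 1 of 6 and 1 (median -0.16), and NRF2 and redox genes 5 of 35 and 6 (median -0.04). JUN, an AP-1 subunit, was read at 36.7, 47.8 and 45.1 CPM against 25.1, 20.04 and 21.9 CPM (difference 1.03). DUSP6, a phosphatase of ERK, was lower, with a difference of -0.47. GLI2, a Hedgehog effector, was read at 19.7, 18.6 and 16.5 CPM against 11.2, 13.0 and 10.9 CPM (difference 0.72), and its homologue GLI1 had a difference of -0.38. HMOX1, heme oxygenase, was lower, at 10.0, 5.97 and 7.92 CPM against 13.6, 14.8 and 11.5 CPM (difference -0.76), and AKR1B10, also an NRF2 target, was higher (difference 0.40).

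Housekeeping lists stand beside shares over all genes of 8.98% higher and 8.5% lower without overlap, 2.32% and 1.82% by at least 1.5-fold. Of 15 mitochondrially encoded genes 2 were higher without overlap, both past 1.5-fold, and the list's median difference of 0.27 ranged from -0.0047 to 0.49 with 1 library left out. MT-ND6, a subunit of respiratory complex I, was read at 59.7, 50.4 and 37.3 CPM against 26.4, 17.3 and 13.5 CPM (difference 1.53). MT-RNR1, a mitochondrial ribosomal RNA, was read at 2930, 2688 and 2454 CPM against 2004, 1766 and 1598 CPM (difference 0.61). Nuclear-encoded respiratory chain genes had 1 of 68 higher and 4 lower (median -0.01), lamin and chromatin genes 3 of 28 each way (median -0.0054), and cytosolic ribosomal protein genes 2 of 77 each way (median 0.02). RPLP0, a protein of the ribosomal stalk, was the only ribosomal one past 1.5-fold, at 1479, 1056 and 1140.1 CPM against 1552, 2138 and 2169 CPM (difference -0.91).

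The titles do allow a test, of doxycycline against control over both lines and of Y273F against WT over both treatments. In edgeR's quasi-likelihood test over 13045 genes 0 (0%) passed an adjusted p of 0.05 for either effect, and 161 and 297 had an unadjusted p under 0.05. With no effect at all, 652 of 13045 genes would be expected under that unadjusted threshold, more than either count. The smallest Benjamini-Hochberg adjusted p of edgeR was 0.9995 for doxycycline and 0.9997 for the line. DESeq2 also gave 0 genes (141 and 300 unadjusted), as did limma-voom (197 and 347 unadjusted). DYRK1B, the induced gene, had a labelled doxycycline effect of 1.16 on the log2 scale (SE 0.59, edgeR adjusted p = 0.9995). Of the 540 genes set apart by 1.5-fold between libraries 4, 8, 12 and 3, 7, 11, 0 passed either labelled test, and 3 and 2 had an unadjusted p under 0.05. Those 540 genes were picked for a gap that the titles cut across, so nothing is read from these counts. Titles put 2 doxycycline libraries in the first set (4 and 12) and 1 in the second (11), and 1 WT library in each. The p-values measure the spread within groups as titled, and the titles cut across sets that differ in many genes.

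The other 6 libraries form sets of their own under the same numbering, 1, 5, 9 and 2, 6, 10. There 3617 genes (27.7%) were higher without overlap in 2, 6 and 10 than in 1, 5 and 9, and 3599 (27.6%) were lower. Of the 302 genes higher by 1.5-fold in 4, 8 and 12, 218 (72.2%, and 6.03% of the 3617) were also higher in 2, 6 and 10, and 10 (3.31%, and 0.278% of the 3599) were lower. Of the 238 genes lower in 4, 8 and 12, 133 (55.9%, and 3.7% of the 3599) were also lower in 2, 6 and 10, and 28 (11.8%, and 0.774% of the 3617) were higher. No library is shared by these contrasts, but both follow numbering that was chosen after the values were seen, and no test of this overlap is given. EFEMP1 was read at 60.9, 61.6 and 52.9 CPM in libraries 2, 6 and 10 and at 5.33, 6.04 and 6.21 CPM in 1, 5 and 9, so that libraries 4, 8 and 12, at 15.1 to 19.9 CPM, lay between. TRIML2 was at 157, 153 and 157 CPM in libraries 2, 6 and 10 and GALNT16 at 33.3, 28.1 and 36.1 CPM, both above libraries 4, 8 and 12.

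CDKN1A was read at 43.7, 46.7 and 43.0 CPM in libraries 1, 5 and 9. In libraries 2, 6 and 10 it was read at 255, 275 and 242 CPM. Here both of the sets compared above lay between. Libraries 4, 8 and 12 were at 48.1 to 63.3 CPM and libraries 3, 7 and 11 at 53.9 to 62.3 CPM. The stress response list was higher in both contrasts, with 18 of 34 members higher and 7 lower without overlap in 2, 6 and 10 than in 1, 5 and 9 (median difference 0.45). Its level was 0.30, 0.26 and 0.25 in libraries 2, 6 and 10 and -0.28, -0.24 and -0.29 in libraries 1, 5 and 9. Single members of it differed. PHGDH was read at 48.3, 51.9 and 61.1 CPM in libraries 2, 6 and 10, below all of libraries 4, 8 and 12. PCK2, at 25.4, 20.9 and 25.4 CPM there, also stayed below them. DYRK1B was read at 3.15, 7.79 and 4.65 CPM in libraries 2, 6 and 10 and at 5.79, 4.06 and 3.22 CPM in libraries 1, 5 and 9, so these sets overlapped. PADI2, lower in libraries 4, 8 and 12, was higher without overlap in 2, 6 and 10, at 24.3, 18.2 and 20.4 CPM against 12.4, 8.86 and 14.1 CPM in 1, 5 and 9.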

How the data were processed

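Per the labels' protocols, libraries of column-purified RNA were made with the QuantSeq FWD V2 kit, a stranded 3' tag method. Reads were aligned with STAR to GRCh38.p14, per the submitters' processing notes. The aligner's version, the annotation and the treatment of molecular identifiers are not stated there. The authors deposited raw counts of reads per gene in each library, and a merged count table by symbol, the source of all values here. All 40605 merged rows equal a transcript-strand row, and 1212 rows repeating a symbol were summed to give 39393 symbols. Reads in no gene (35.5% to 43.2%) were left out, and 7.25% to 8.07% of counts over both strands were on the opposite strand. Library totals ranged from 2783265 to 22028624 counts. Floors cover counting error only.

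Groups were taken from the titles and library numbers from the labels. Counts were scaled with TMM factors over all 12 libraries, and genes were kept by filterByExpr (minimum count 10), which left 13045. Differences use log2 CPM with a prior count of 2. The set contrast has no test, because its libraries were chosen from the values. Labelled effects were tested with edgeR 4.0.16 (quasi-likelihood functions glmQLFit and glmQLFTest, under R 4.3.3) in 1 model with 4 group means and Benjamini-Hochberg adjustment, and the p-values measure the spread between the titled populations. Named genes were a fixed list (DYRK1B, CSAG1, CDH10, CDKN1A, CDKN1B, CCND1, LMNB1, MKI67, GDF15, CXCL8, DCAF7), the 12 highest and 12 lowest differences among non-overlapping genes with an official symbol and a mean of at least 10 CPM, and up to 4 non-overlapping members of a described list. The members, the 34 gene lists and the rules were chosen with earlier results of these data known. Alternatives were other size factors, filters, strands, a prior count of 0.5, thinning to the smallest total, leaving out each library, DESeq2 1.42.0, limma-voom 3.58.1 and a term for the replicate number. The edgeR procedure was run on simulated counts with known changes between the titled treatments and without sets that cross the groups. That run therefore does not show what the labelled tests could detect in these data. Promoter windows are RefSeq's (GRCh38.p14), with untranslated regions from GENCODE on the same assembly. Some genes that meet the naming rule are not reported here.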

Additional observations from a re-analysis of the deposited data

How the results depend on the processing

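The number of genes higher by 1.5-fold in libraries 4, 8 and 12 was 302, and 154 with a filter of at least 10 CPM in 3 libraries. The number lower was 238, and 401 with no filter on low counts and 100 with the stricter one. With 1 library left out, these counts ranged from 433 to 481 and from 340 to 504, and the 2281 non-overlapping genes became 3258 to 3934, since 3 against 2 values overlap less often by construction. The DYRK1B difference of 1.98 stayed between 1.65 and 2.39 with 1 library left out. The median difference of the senescence-associated secreted list (0.09) was -0.030 to 0.18 with 1 library left out (the lowest without library 4), 0 with no filter and 0.43 with the stricter one. With no library left out, 10 of 293 alternative values for named genes and 19 of 252 for gene lists moved by more than the spread within the sets. With 1 left out, these were 14 of 198 and 28 of 168, beside the 1 reversal just given. Differences near 0 of overlapping genes also turned sign: CDKN1A (0.16) was -0.026 after thinning and down to -0.038 with 1 library left out, and CDKN1B (-0.018) was 0.0074 on counts without strand. So did the medians of the CDK inhibitor, G2/M, p53, epithelial, respiratory chain, mitochondrially encoded, ribosomal, TGF-beta and lamin lists under at least 1 setting. Scaling shifted the median of all genes to at most -0.0102. The labelled tests gave 0 genes under each other setting and 0 to 1 with 1 library left out: the pseudogene RPL32P18 without Y273F doxycycline replicate 2 (doxycycline effect -2.05, edgeR adjusted p = 0.00188; line effect -2.27, adjusted p = 0.000761) and FKBP1C without Y273F doxycycline replicate 3 (-2.31, adjusted p = 0.0286; -2.92, adjusted p = 0.00365). The cause was not tested. With the replicate number as a block 0 genes passed for either effect (84 and 192 at an unadjusted p under 0.05, both below the 652 expected with no effect). The numbers do not pair the libraries: deviations of same-numbered libraries correlated at -0.69 to 0.58 (18 pairs), those of different numbers at -0.65 to 0.81 (36 pairs), and 3 of 12 libraries correlated best with their own number. Library 8, the shallowest of the 6, limits genes of low counts, including DYRK1B at 38 counts.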

Other observations

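Levels of FGFR3 and RPLP0 varied within sets of libraries that were alike in other genes. Library 6 had 157 CPM of FGFR3 and 1877 CPM of RPLP0, while libraries 2 and 10 had 6.74 and 6.43 CPM of FGFR3 and 819 and 781 CPM of RPLP0. Library 5 had 10.0 CPM of FGFR3 and 2113 CPM of RPLP0, so a low value of one did not always go with a low value of the other. Genes outside the lists that were chosen after their values were seen include TRMT5, a tRNA methyltransferase, at 64.2, 59.7 and 59.2 CPM in libraries 4, 8 and 12 against 25.2, 28.2 and 22.6 CPM in libraries 3, 7 and 11. CYP1B1, a target of the aryl hydrocarbon receptor, was read at 259, 372 and 356 CPM against 165, 192 and 162 CPM. SOX2, a stem cell transcription factor, was lower in libraries 4, 8 and 12, at 29.6, 35.8 and 33.4 CPM against 44.9, 52.99 and 51.5 CPM.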
